A study of Mus musculus with 3 samples.

Results

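The sample described here is the single array labelled agent none, 1 of the 3 arrays of the series: peritoneal macrophages of mice that received lipopolysaccharide and then the phorbol ester TPA, without chromate. The animals were male Swiss albino mice aged 8 weeks, in groups of 10. On day 0 each mouse was given 125 µg lipopolysaccharide, a bacterial cell wall product, into the peritoneum, and on day 4 the control group was given 100 ng TPA. Cells were rinsed out of the peritoneal cavity 4 days later in a medium that held GM-CSF, a growth factor of macrophages, and red cells were removed before counting. Whether 1 animal or a pool gave the RNA is not said in the labels. Total RNA was labelled with Cy3 and hybridised to an Agilent whole-genome mouse array. Lipoic acid, which the series title names, was not given to these animals. All that follows comes from this array alone, and the 2 chromate arrays enter no value.

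Resident macrophages of the peritoneal cavity engulf dying cells and microbes, present antigen and depend on the growth factor CSF1. The large resident type is known for the transcription factor Gata6, which retinoic acid sustains, while the smaller type arises from blood monocytes and carries more MHC class II. TPA mimics diacylglycerol, the lipid messenger that activates protein kinase C, and lipopolysaccharide is sensed through Tlr4 with Cd14 and Ly96.

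A level is given throughout as the log2 processed signal minus the array's 75th percentile of it over 43379 spots that are not controls. A level of 0 therefore equals a signal of 269. Of 19750 named genes, 12144 had at least 1 probe flagged well above background by the scanner software, which is called detected here (61.5% of all genes). A gene took the level of its brightest detected probe. Detected genes were split by level: the top 25% are called bright (at or above 2.81, 15.4% of all genes), the bottom 25% dim (below -1.13), and the 6072 between them moderate. Another 7606 genes were not well above background. Their signals lie close to background and are not ranked here, so no level is given for them. Under the looser flag of the scanner software, which asks for a positive and significant signal, 82.2% of genes were detected, and a gene not well above background may still be transcribed. In 93 genes (0.471%) the brightest probe was saturated, so the level, 7.83 or more, is a lower bound.

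How finely a level can be read was measured on the array itself. For 138 detected probes printed as 10 spots each, the median SD between spots was 0.043, and the median error that the scanner software gave for a detected gene was 0.14. These errors are technical. With 1 array there is no spread between animals, no test and no p-value. Different probes of a gene lay much farther apart. Among 2475 genes with 2 detected, unsaturated probes, the median difference between the probes was 1.96, and 27.9% of these genes had probes within 1 of each other. Of all 5601 genes with 2 probes, both were detected in 2501, 1 in 1572 and neither in 1528. The level of 1 gene is therefore not set against that of another: bright, moderate and dim describe signals, not transcript numbers. The wash also holds other cells, and in such bulk RNA fewer cells of a type and less RNA per cell cannot be told apart.

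**Figure D1:**
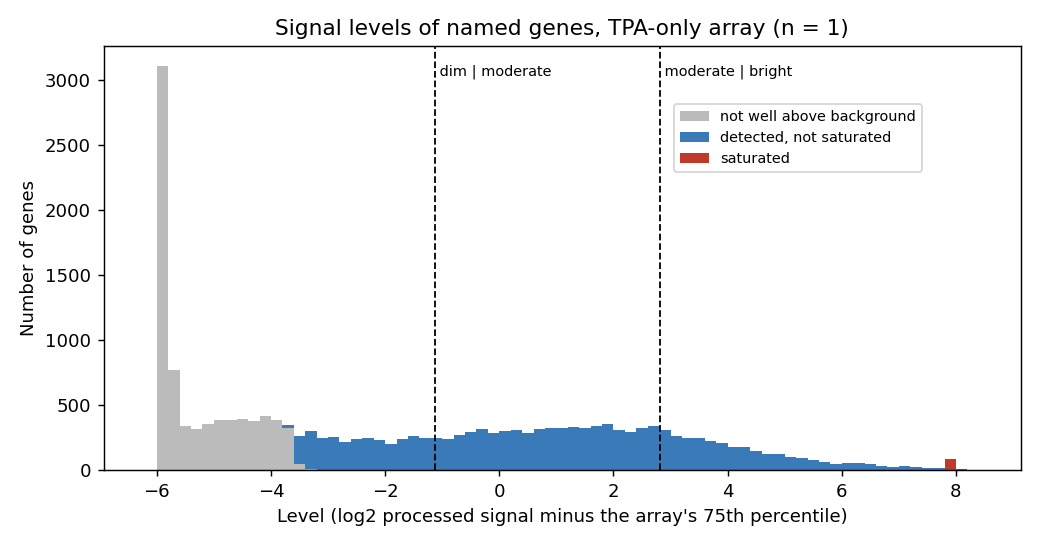
Number of named genes (vertical axis) by level, the log2 processed signal minus the array's 75th percentile (horizontal axis), on the TPA-only array, with genes not well above background in grey, detected genes in blue and saturated genes in red. Dashed lines mark the limits at -1.13 and 2.81 between dim, moderate and bright; the 93 saturated genes form the red bar at the right end, and grey genes are not ranked.

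**Figure D2:**
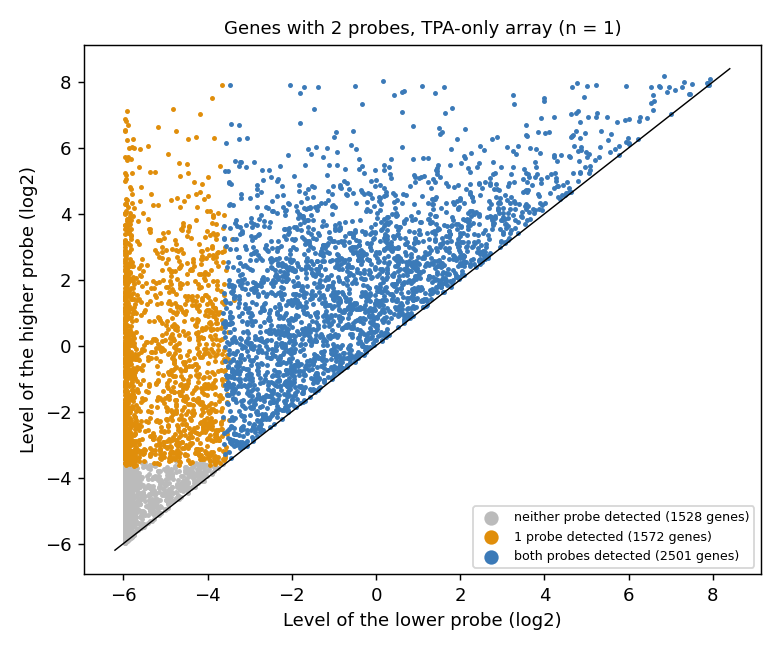
Level of the higher probe (vertical axis) against that of the lower probe (horizontal axis) for the 5601 genes with 2 probes on the TPA-only array; each point is a gene and the line marks equal levels. Many points lie far above the line: 1 of the probes was detected in 1572 genes (orange), and the median difference was 1.96 where both were detected and unsaturated.

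Genes that define macrophages were read first. The list was chosen with earlier results of these data known, so it is no independent check of the label macrophage. All 22 core macrophage genes were detected, 21 of them bright. Their median level was 5.76, against 0.96 over detected genes and -1.74 over all named genes, many of them undetected. Adgre1, which encodes an adhesion receptor that marks mouse macrophages, stood at 7.67, and its other probe at 1.40. Csf1r, the receptor for CSF1, stood at 6.13 on its brightest probe and at -0.80 on the lowest of 3, so even a defining receptor ranged over several log2 units by probe. Lyz2, the lysozyme of phagocytes, and Ctss, a protease that trims the MHC class II invariant chain, were saturated. The pore-forming protein gene Mpeg1 stood at 7.71 and the adaptor gene Tyrobp at 7.12. Both chains of the GM-CSF receptor were bright, Csf2ra at 6.81 and Csf2rb at 5.40. Itgam (the integrin CD11b, 5.22), Fcgr1 (the high-affinity IgG receptor, 4.57), Cd68 (4.33), Trem2 (4.73) and Mertk (a receptor for dying cells, 3.17) were bright too. Cd300lf, at 2.78, was the 1 member below the bright limit, by less than the median scanner error.

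The sequence before the gene start was read for the same genes, and 4 promoters are printed as examples of the counts that follow. RefSeq, on build GRCm38.p6, gave the 250 bases before the start for 15593 genes of the array. The median number of CpG pairs in that window was 16 in bright genes, 16 in moderate, 12 in dim and 4 in genes not well above background. For the 16 core macrophage genes with a promoter it was 4, ranging from 1 to 17, and for the 23 genes used by most cells it was 15. Low counts were also found in other lists of specialised cells, with medians of 3 in neutrophil, 2.5 in hepatocyte, 3 in pancreas, 5 in T cell and 5 in mesothelial genes. They were not found in all: the median was 13 in neuron and glia genes. Among macrophage function lists it was 17.5 in transcription factors and 12 in cytokine and growth factor receptors. The run GAGGAA, a purine core that the myeloid factor PU.1 is known to bind, was searched on both strands. It stood in 11 of the 16 core macrophage promoters (68.8%), against 23.1% of all 27025 promoters in the table and 22.5% of those on the array. The share was much the same in each class of level: 22.7% of bright, 22.9% of moderate, 22.1% of dim genes and 22.2% of the rest held it. It stood in 8 of 14 promoters of the monocyte and small peritoneal macrophage genes (57.1%), in 2 of 13 of the large peritoneal genes (15.4%) and in 5 of 23 of the genes used by most cells (21.7%). Neutrophil genes, few of them bright here, held it in 14 of 22 (63.6%). High shares were not limited to myeloid lists: 7 of 13 endothelial (53.8%), 5 of 10 platelet, 8 of 17 T cell (47.1%) and 6 of 13 gut epithelium promoters (46.2%) held it, as did 16 of 30 of the eicosanoid list (53.3%) and 7 of 12 of the alternative activation list (58.3%). It was 1 of 5 runs searched. Among the core macrophage promoters the longer GAGGAAGT, which contains it, was in 0, TATAAA in 4 (25.0%, against 13.0% of all promoters), TGACTCA in 1 and CCGGAAG in 1. A match is a description of letters, not a bound site, and no test was made. The 4 sequences below run 5′ to 3′ on the gene's own strand and end at the base before the start, with the run GAGGAA or its reverse complement in capitals. The first, of Itgam, on the plus strand at chr7:128062390-128062639, has 2 matches and 6 CpG pairs. Ctss, plus strand, chr3:95526536-95526785, has 1 match and 4 CpG pairs. Lyz2, minus strand, chr10:117282273-117282522, has 0 matches and 1 CpG pair although its signal was saturated. Rplp0, a ribosomal protein gene on the plus strand at chr5:115559217-115559466, is shown as a bright gene of most cells, with 0 matches and 19 CpG pairs.
Itgam: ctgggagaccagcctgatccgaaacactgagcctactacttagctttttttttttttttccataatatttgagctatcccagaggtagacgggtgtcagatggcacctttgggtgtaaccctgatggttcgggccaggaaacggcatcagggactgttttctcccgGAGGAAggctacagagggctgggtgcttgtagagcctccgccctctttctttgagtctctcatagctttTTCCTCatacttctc
Ctss: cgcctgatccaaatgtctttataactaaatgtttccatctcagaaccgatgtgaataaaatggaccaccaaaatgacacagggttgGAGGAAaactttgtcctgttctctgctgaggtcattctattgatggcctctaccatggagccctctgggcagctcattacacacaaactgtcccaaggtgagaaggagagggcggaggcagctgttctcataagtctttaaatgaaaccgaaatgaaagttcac
Lyz2: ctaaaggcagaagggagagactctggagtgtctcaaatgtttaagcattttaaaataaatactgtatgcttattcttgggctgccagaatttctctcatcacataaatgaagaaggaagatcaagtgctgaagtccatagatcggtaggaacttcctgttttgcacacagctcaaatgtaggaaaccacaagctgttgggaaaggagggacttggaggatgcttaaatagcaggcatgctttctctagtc
Rplp0: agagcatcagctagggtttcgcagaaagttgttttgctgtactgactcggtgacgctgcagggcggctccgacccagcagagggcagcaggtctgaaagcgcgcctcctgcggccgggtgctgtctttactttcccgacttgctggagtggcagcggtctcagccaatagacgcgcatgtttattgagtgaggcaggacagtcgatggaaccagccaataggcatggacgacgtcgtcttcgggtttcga

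**Figure D3:**
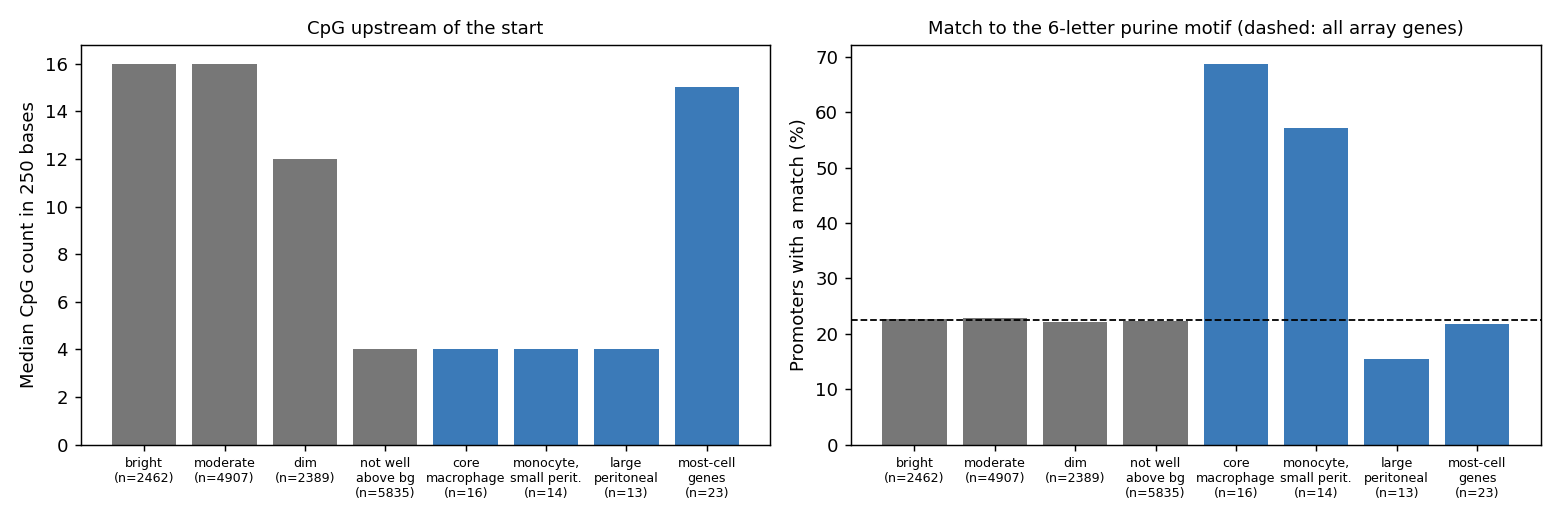
Left, median number of CpG pairs in the 250 bases before the start; right, percent of promoters with the 6-letter purine run on either strand, for the 4 classes of level (grey) and 4 gene lists (blue), with the number of promoters under each bar. The CpG bars fall from 16 in bright genes to 4 in genes not well above background and are at 4 in the core macrophage genes; the motif bar is 68.8% there, against a dashed line at 22.5% for all array genes.

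Genes known for the large peritoneal macrophage were detected in 20 of 20 cases and bright in 14, with a median level of 3.77. Gata6, its defining transcription factor, was bright at 3.76, and all 3 of its probes were detected, the lowest at -2.18. Icam2 (CD102), a surface marker of this type, was saturated. The matrix protein gene Fn1 stood at 7.76 with 4 of 4 probes detected, the integrin chain Itga6 at 6.64 and the lubricating protein Prg4 at 6.63. Timd4, which binds phosphatidylserine on dying cells, stood at 5.02, and the B cell attractant Cxcl13 at 4.57. Selp (4.51), the clotting factor F5 (3.77) and Tgfb2 (3.76) were bright as well. Rarb, a retinoic acid receptor, lay just below the bright limit at 2.68. Moderate levels were read for Nt5e (CD73) at 1.67, Thbs1 at 2.36 and Laptm4b at -0.20.

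Genes of monocytes and of the small peritoneal macrophage were detected in 15 of 17 cases, with 6 bright and a median of 0.83. Plac8 stood at 6.33, the Fc receptor Fcgr4 at 5.08 and the lectin Clec10a at 4.42. Among receptors that define the lineage, Ccr2 was moderate at 1.74, the integrin Itgax (CD11c) moderate at 0.23 with 1 of 2 probes detected, and Cx3cr1 dim at -1.13, almost on the limit to moderate. The transcription factor Irf4, used by the small type, was moderate at -0.43. Cd226 and Cd209a were not well above background, with 0 of 4 and 0 of 1 probes detected. Ly6c2 was not matched to a probe and is not analysed here.

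Genes that mark macrophages of other organs were mixed: 13 of 19 were detected (68.4%) and 5 bright (26.3%), against 61.5% and 15.4% of all genes. Marco, a scavenger receptor for bacteria and particles, was saturated, and Cd5l, a secreted protein of tissue macrophages, stood at 7.75. Chil3 (5.49) and the ficolin Fcna (5.35) were bright. Siglec1 (1.89), Folr2 (2.27) and the microglial gene Tmem119 (1.19) were moderate. Spic (-1.45), Lyve1 (-1.47), Cd163 (-2.94), P2ry12 (-3.02) and Siglecf (-2.96) were dim. Clec4f of Kupffer cells, Cd207 of Langerhans cells, Sall1 of microglia, and Car4, Epcam and Krt79 were not well above background.

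**Figure D4:**
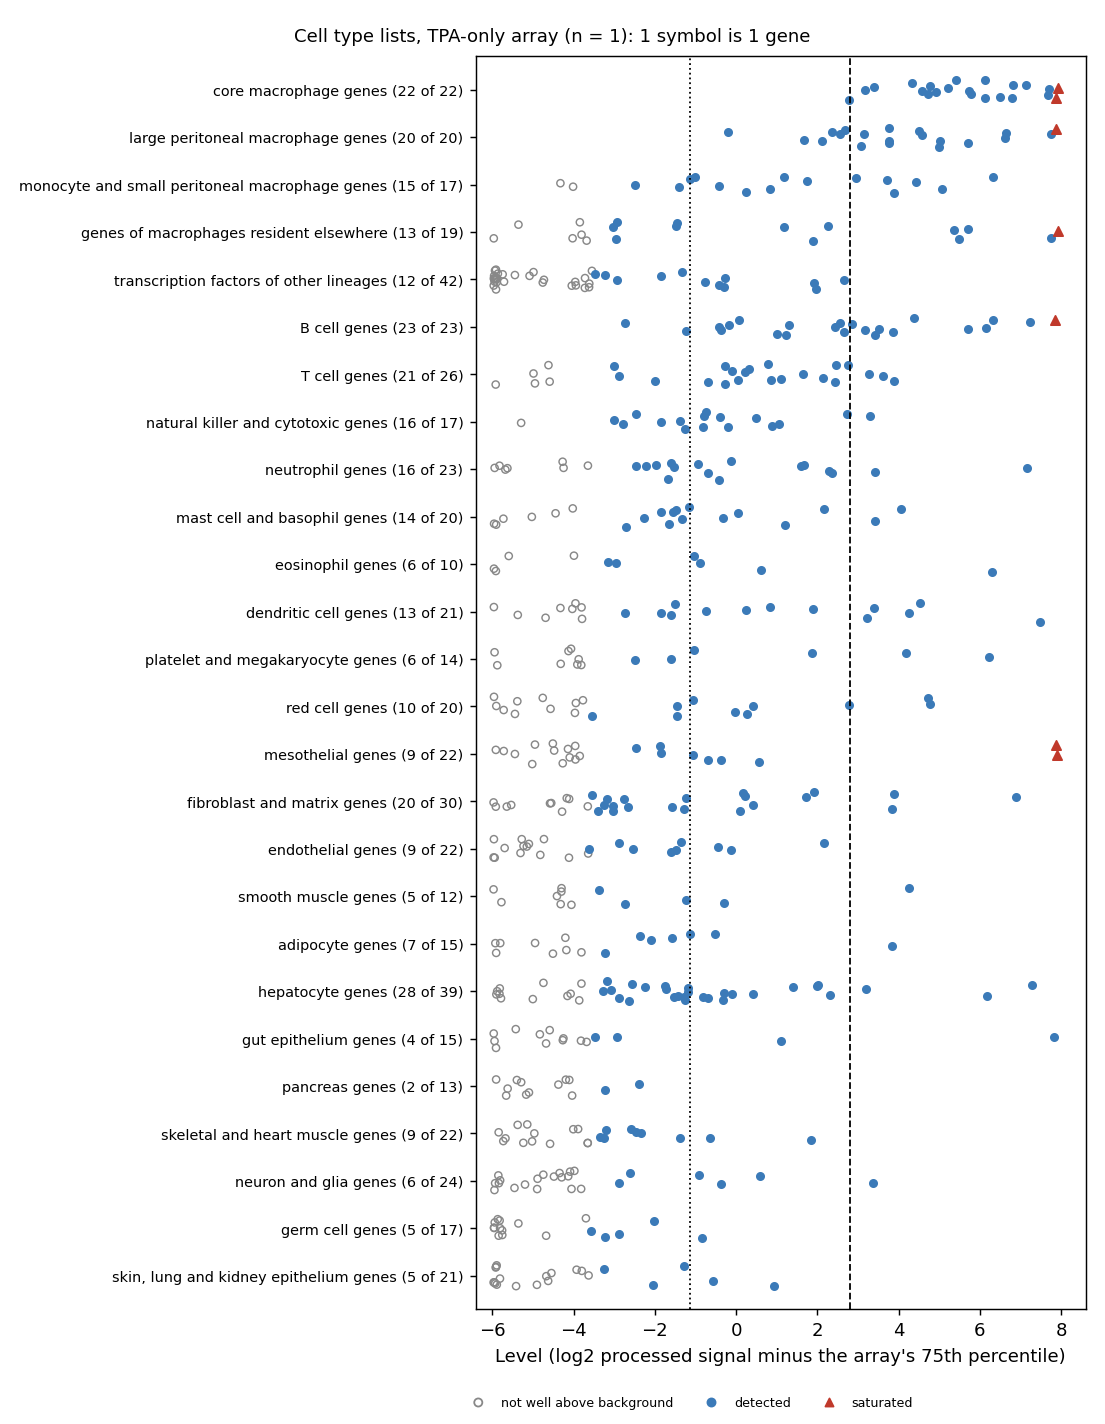
Level of each listed gene (horizontal axis, log2 over the 75th percentile) on the TPA-only array, by cell type list, with the number detected of those on the array in brackets. Dotted and dashed lines mark -1.13 and 2.81; open circles are not well above background and are not ranked. Core macrophage genes lie almost wholly right of the dashed line, B cell genes spread from dim to saturated, and most genes of distant tissues are open circles.

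Receptors for antibody and complement were detected in 17 of 18 cases and bright in 9. The IgG receptor Fcgr3 stood at 7.07, its signalling chain Fcer1g at 6.79, and Itgb2, the partner chain of CD11b in complement receptor 3, at 6.65. The inhibitory receptor Fcgr2b was moderate at 2.45. Vsig4, a receptor for C3 fragments, was bright at 3.07. Of the anaphylatoxin receptors, C3ar1 was moderate at 1.63 and C5ar1 dim at -3.46.

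Scavenger, lectin and apoptotic-cell receptors were detected in 27 of 32 cases, with 13 bright. Beside Marco, the uptake receptor Lrp1 (6.10), the class A scavenger receptor Msr1 (4.54), Cd36 (4.16) and the β-glucan receptor Clec7a (4.63) were bright. The bridging proteins that tag dying cells differed in class: Mfge8 (4.83) and Pros1 (4.77) were bright and Gas6 moderate at -0.01. Pros1 and Gas6 are ligands of the TAM kinases as a family, though not each of every member. Of these kinases, Mertk was bright, Axl moderate at -0.67 and Tyro3 dim at -3.54, with 1 of 3 probes detected. The mannose receptor Mrc1 was moderate at 0.31.

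Sensors of microbes and their adaptors were detected in 32 of 37 cases and bright in 13. For lipopolysaccharide, Cd14 stood at 6.50, Ly96 at 2.38 and Tlr4 at 0.93, the last with 1 of 2 probes detected, while the adaptor Myd88 was bright at 3.87. Tlr2, for bacterial lipopeptides, was bright at 3.46. Tlr1 (1.71), Tlr6 (0.92), Tlr7 (2.44) and Tlr9 (0.80) were moderate, and Tlr3, Tlr5 and Tlr8 were not well above background. Of the inflammasome genes, the adaptor Pycard stood at 7.63, Casp1 at 4.27 and Casp4 at 4.40. The sensor Nlrp3 was dim at -2.49, and Aim2 was not well above background. The cytosolic sensors Nod1 (5.38) and Zbp1 (5.19) were bright, as was the adaptor Sting1 (4.25).

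Cytokine and growth factor receptors were detected in 38 of 43 cases, with 13 bright. Both chains for interferon-γ were bright, Ifngr1 at 6.18 and Ifngr2 at 3.82, and so were both for IL-10, Il10ra at 5.12 and Il10rb at 5.18. The IL-4 receptor chain Il4ra stood at 4.57 and the TGF-β receptor chain Tgfbr2 at 5.18. Both TNF receptors were bright, Tnfrsf1a at 3.87 and Tnfrsf1b, near the limit, at 2.91. Il6st, the shared chain of the IL-6 receptor family, was moderate at 1.27. Il1r1 was dim at -1.78, and the decoy receptors Il1r2 and Il13ra2 were not well above background. Receptors for chemokines and other attractants were detected in 23 of 31 cases (74.2%, against 61.5% of all genes). Of these receptors 7 were bright (22.6%, against 15.4% of all genes). The formyl peptide receptors Fpr1 (5.06) and Fpr2 (3.74) and the chemokine receptor Cxcr5 (4.73) were bright. Ccr1 and Xcr1 were not well above background.

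Of 46 cytokine genes, 28 were detected (60.9%, near the 61.5% of all genes) and 3 were bright (6.52%, below the 15.4% of all genes). The bright members were the growth factor precursor Grn, which was saturated, Mif at 4.76 and Tgfb2 at 3.76. Classical products of activated macrophages lay near the limit between moderate and dim: Tnf at -1.02, Il1b at -1.03 and Il6 at -1.11. These 3 levels were within the median scanner error of that limit, so their class is not firm. Il18 (1.67) and Tgfb1 (1.86) were moderate and Il1a (-2.99) and Il12a (-2.94) dim. Il10, Il12b, Il23a, Ifnb1 and Csf2 were not well above background. Ifng, a product of lymphocytes, was moderate at -0.36 with 2 of 2 probes detected.

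Of 34 chemokines, 19 were detected (55.9%) and 7 bright (20.6%), near the 61.5% and 15.4% of all genes. With the looser flag 29 were detected, against 82.2% of all genes. Ccl6 stood at 7.55, Ccl5 at 7.03, Pf4 at 6.22, Ccl24 at 5.95 and Ccl9 at 5.56. Ccl24 attracts eosinophils and Ccl5 T cells. Of the inducible attractants of monocytes and neutrophils, Cxcl1 (-1.13) was moderate and Ccl2 (-1.14) dim, both almost on the limit between these classes. Cxcl2 was dim at -2.97, Ccl4 was moderate at 0.52, and Ccl3, Ccl7, Ccl12 and Cxcl5 were not well above background. Cxcl9 (-0.19) and Cxcl10 (-0.81), ligands of Cxcr3, were moderate.

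Of the MHC class I genes and their loading machinery, 19 of 19 were detected and 15 bright, with a median of 6.41. H2-D1, H2-K1, H2-T23, H2-Q10 and H2-Q1 were saturated, and since class I genes are near-identical copies their probes may share transcripts. B2m, the light chain, stood at 6.81, and the immunoproteasome subunits Psmb8, Psmb9 and Psmb10 at 6.41, 6.20 and 6.71. The peptide transporters Tap1 (2.32) and Tap2 (1.66) were moderate. For class II and costimulation, 19 of 21 were detected and 10 bright. The invariant chain Cd74 and H2-Ab1 were saturated, H2-Eb1 stood at 6.62, H2-Aa at 5.80 and the master regulator Ciita at 3.51. B cells and dendritic cells also use these genes. The costimulators Cd40 (1.42), Cd86 (0.84) and Cd80 (-0.98) and the ligand Cd274 (PD-L1, 1.34) were moderate.

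Interferon-stimulated genes were detected in 34 of 34 cases and bright in 16, with a median of 2.51. Ifi27l2a stood at 7.42, Ifitm3 at 6.91, Bst2 (tetherin) at 5.65 and the GTPases Igtp and Gbp2 at 5.06 and 4.82. The ubiquitin-like modifier Isg15 was moderate at 2.07, as were Rsad2 (0.78) and Mx1 (0.02). Ido1 (-1.14) and Ifit2 (-1.17) were dim, both close to the limit at -1.13.

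Genes used to mark alternative activation were detected in 19 of 20 cases and bright in 9. Arg1, which turns arginine into ornithine, stood at 3.38, Retnla at 4.02, Tgm2 at 4.71 and the lipoxygenase Alox15 at 6.31. Pparg was dim at -1.58 and Ccl22 not well above background. In the same array Nos2, the inducible nitric oxide synthase, was not well above background on its 1 probe, while Acod1, the itaconate enzyme, was bright at 4.56 with 2 of 2 probes detected. The phagocyte NADPH oxidase, which makes superoxide, was bright in the subunits named here: Cybb (3.95), Cyba (5.65), Ncf1 (3.03), Ncf4 (6.61) and the switch protein Rac2 (6.19). The oxidases of other cells, Nox1, Nox3, Nox4, Duox1 and Duox2, were not well above background. Over the oxidase, nitric oxide and arginine list, 18 of 28 genes were detected (64.3%, near the 61.5% of all genes).

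Lysosomal genes were detected in 51 of 52 cases and bright in 35, with a median of 3.98. The protease Ctsd was saturated, Ctsh stood at 7.57, Ctsb at 7.20, Ctsz at 7.15 and Ctsl at 6.83. Membrane proteins Lamp1 (6.30) and Lamp2 (5.79) and the sphingolipid activator Psap (6.86) were bright. Ctsk, the osteoclast protease, was the 1 member not well above background. The proton pump that acidifies the organelle was detected in 19 of 24 subunits. The 5 others were Atp6v1b1, Atp6v1e2, Atp6v1c2, Atp6v0d2 and Atp6v1g3, while their common counterparts Atp6v1b2 (1.13), Atp6v1e1 (2.88), Atp6v1c1 (0.72), Atp6v0d1 (3.13) and Atp6v1g1 (5.91) were detected.

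Eicosanoid genes were detected in 27 of 37 cases (73.0%) and bright in 9 (24.3%), against 61.5% and 15.4% of all genes. Genes of the route to leukotriene C4 were bright: Alox5 at 5.16, its activating protein Alox5ap at 7.38 and leukotriene C4 synthase, Ltc4s, at 5.91. Lta4h, which makes leukotriene B4, was moderate at 0.27. Of the cyclooxygenases, the constitutive Ptgs1 was bright at 5.67 and the inducible Ptgs2 was not well above background on either of its 2 probes. Thromboxane synthase, Tbxas1, stood at 4.40, prostaglandin E synthase, Ptges, at 1.59, and both prostaglandin D synthases, Ptgds and Hpgds, were not well above background.

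Lipid genes were detected in 39 of 44 cases and bright in 19. Apoe was saturated, the lipid droplet coat Plin2 stood at 7.07, Apoc1 at 6.66 and lipoprotein lipase, Lpl, at 5.43. The cholesterol exporters Abcg1 and Abca1 stood at 3.19 and 2.63. Fabp4, a fatty acid carrier of macrophages and fat cells, was bright at 3.84 with 3 of 3 probes. Ppara, Ppard and Ch25h were not well above background.

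Transcription factors used by macrophages were detected in 60 of 62 cases and bright in 35. Klf2 was saturated, Irf1 stood at 6.67, Cebpb at 6.30, Klf4 at 5.94, Stat3 at 5.41, Irf8 at 4.52 and Maf at 3.17. Spi1, which encodes PU.1, was moderate at -0.27 on its 1 probe. Egr3 and Rel were not well above background. Of 42 transcription factors that define other lineages, 12 were detected (28.6%) and 0 were bright. Under the looser flag 28 were detected, against 82.2% of all genes. Most of those detected are factors of blood cells, such as Pax5 of B cells (2.65), Tbx21 (1.98), Gata3 (-0.29) and Tcf7 (-0.27). Hnf4a of liver, Wt1 of mesothelium, Pdx1 of pancreas, Myod1 of muscle, Sox2 and Nanog were not well above background. Gata4, the close relative of Gata6, was not well above background on either of 2 probes.

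**Figure D5:**
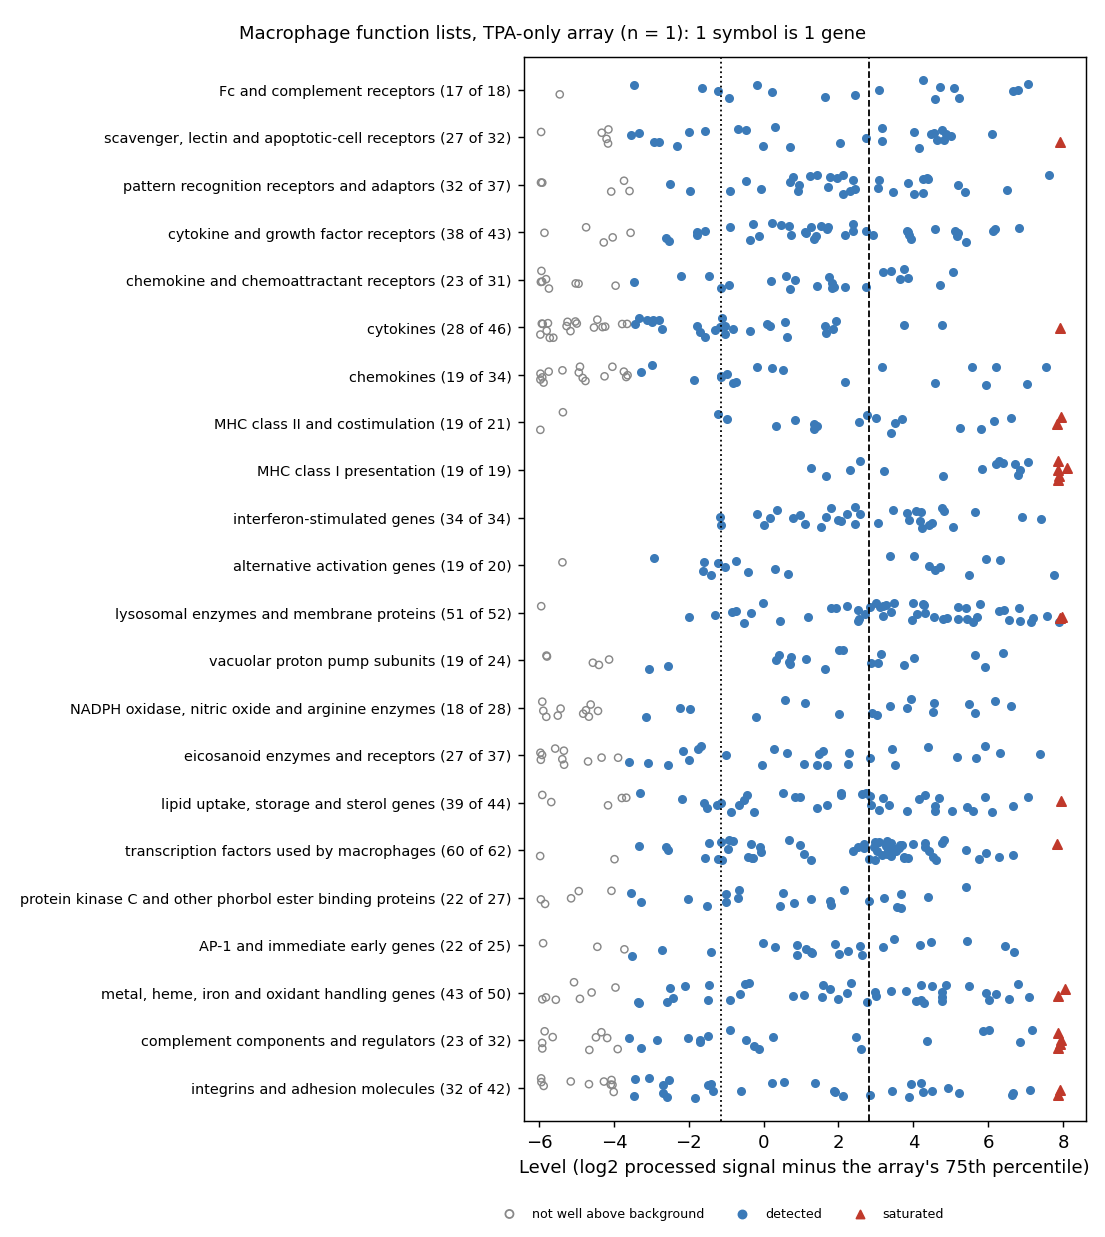
Level of each listed gene (horizontal axis, log2 over the 75th percentile) on the TPA-only array, by macrophage function list, with the number detected of those on the array in brackets and the limits -1.13 and 2.81 as dotted and dashed lines. MHC class I and lysosomal genes lie mostly right of the dashed line and include saturated genes (red); cytokines and chemokines hold many open circles, which are not well above background and are not ranked.

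Genes of the protein kinase C and phorbol ester list, not all of whose proteins bind TPA, were detected in 22 of 27 cases (81.5%, against 61.5% of all genes). A rule asking for every probe left 14, against 44.7% of all genes. Of the list, 6 were bright (22.2%, against 15.4% of all genes). Among the kinase C genes that diacylglycerol activates, Prkcb (4.40) and Prkcd (3.66) were bright, Prkce (0.80), Prkcq (0.44) and Prkch (-0.69) moderate, and Prkca (-3.55) dim. Prkca had 1 probe and lay close to the lowest detected level, -3.65. Of the related kinases D, Prkd2 (3.57) and Prkd3 (3.68) were bright and Prkd1 not well above background. The Ras activator Rasgrp2 was bright at 5.42. AP-1 and immediate early genes were detected in 22 of 25 cases and bright in 7: Jund stood at 6.68 and Junb at 6.44, Jun was moderate at 0.89, Fos dim at -1.41, Fosb dim at -3.51 and Fosl1 not well above background. Cells were taken 4 days after TPA, so no early time is covered.

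Metal, iron and oxidant genes were detected in 43 of 50 cases and bright in 22. The iron store Fth1 and the peroxidase Gpx1 were saturated, Ftl1 stood at 7.09, Hmox1, which breaks down heme, at 4.76, and the phagosomal metal carrier Slc11a1 at 4.21. Sod1 stood at 6.81 on 1 of 3 probes, and the other 2 were not detected. The metallothioneins Mt1 (3.82) and Mt2 (2.76) lay above and just below the bright limit. The iron exporter Slc40a1 was dim at -3.34. Nqo1, Gclm and Slc7a11, known targets of the oxidant sensor Nrf2, were not well above background, while other such targets, Txnrd1 (3.39), Gclc (1.07) and Srxn1 (2.00), were detected. Nfe2l2, the Nrf2 gene itself, stood at 3.53.

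Complement components included 4 saturated genes, Cfb, C3, Cfp and C4b, although the other probe of C3 stood at -2.05. The 3 chains of C1q were bright: C1qa (6.86), C1qb (6.03) and C1qc (7.16). Over the list, 23 of 32 were detected (71.9%, against 61.5% of all genes). Among genes of the membrane attack complex, C6, C7, C8a, C8b and C9 were not well above background and Hc, the C5 gene, was dim at -1.70. Integrins and adhesion molecules were detected in 32 of 42 cases, 20 of them on every probe, with Itgb7 and Icam2 saturated, Selplg at 7.11 and Itga4 at 3.95.

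Genes of other blood cells were detected in 123 of 172 cases (71.5%) and bright in 28 (16.3%, near the 15.4% of all genes). Of the B cell genes, 23 of 23 were detected and 11 bright, with a median of 2.65. Ighm, the heavy chain of IgM, was saturated, the receptor chain Cd79b stood at 7.24, Ms4a1 (CD20) at 6.32, Pou2af1 at 6.15 and Blnk at 5.72. Cd5, shared by T cells and the B-1 cells of the peritoneum, was moderate at 2.43. Some listed genes, such as Ciita, are used by myeloid cells as well. T cell genes were detected in 21 of 26 cases (80.8%, against 61.5% of all genes) and bright in 3 (11.5%, below the 15.4% of all genes). The bright ones were Thy1 (3.89), Cd6 (3.61) and Cd8b1 (3.28). Cd3d (2.45), Cd3g (0.85) and Cd8a (1.11) were moderate, Cd3e dim at -1.99, and Cd4, Ctla4, Foxp3 and Cd40lg not well above background. Natural killer and cytotoxic genes were detected in 16 of 17 cases (94.1%) and bright in 1 (5.88%), against 61.5% and 15.4% of all genes. Nkg7 was the bright one at 3.30, and Gzmb (1.05) and Prf1 (-0.20) were moderate. These counts were not tested against any share of cells.

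Neutrophil genes were detected in 16 of 23 cases (69.6%, against 61.5% of all genes) and bright in 2 (8.70%, below the 15.4% of all genes). The bright ones were Padi4, an enzyme that citrullinates histones, at 7.16 with 3 of 3 probes detected, and Hdc at 3.41. Hdc is the histamine-forming enzyme that mast cells also use. S100a9 (2.36) and S100a8 (-0.41) were moderate, and the granule genes Elane, Ltf, Camp, Ngp and Mmp8 were not well above background. Mast cell and basophil genes were detected in 14 of 20 cases (70.0%) and bright in 2 (10.0%), against 61.5% and 15.4% of all genes. Cma1, a chymase of connective tissue mast cells, was bright at 4.05, Mcpt4 (2.16) and Cpa3 (1.20) moderate and Kit (-1.55) dim. The mucosal proteases Mcpt1 and Mcpt2 were not well above background. Of 10 eosinophil genes 6 were detected (60.0%, near the 61.5% of all genes), but the granule proteins Epx, Prg2 and Prg3 were not. The bright member was Alox15, which the macrophage lists also hold. Dendritic cell genes were detected in 13 of 21 cases (61.9%), and in 20 under the looser flag, which 82.2% of all genes passed. Zbtb46, their defining factor, was dim at -2.73, and Flt3, Xcr1, Clec9a and Siglech were not well above background. Bright members such as Cst3 (7.48) and Irf8 are genes of macrophages as well.

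Red cell genes were detected in 10 of 20 cases, and in 17 under the looser flag, which 82.2% of all genes passed. The α-globin genes Hba-a1 (4.78) and Hba-a2 (4.72), near-identical copies, were bright and Alas2, of heme synthesis, moderate at 2.78. Per the labels, red cells had been removed before counting. Klf1, Gata1 and Rhag were not well above background. Platelet genes were detected in 6 of 14 cases (42.9%, also below the share of all genes), and in 12 under the looser flag. Pf4 (6.22) and Nfe2 (4.18) were bright, while Gp1ba, Gp9, Itga2b and Ppbp were not well above background.

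Lists for cells that line or support the peritoneum held 101 genes, of which 50 were detected (49.5%) and 7 bright (6.93%). With the looser flag of the scanner software, signal above background by its own significance test, 91 of the 101 were detected. That lies above the 82.2% of all genes under this flag, while 49.5% lies below the 61.5% of all genes under the main flag. Both the count and its direction against all genes therefore rest on the flag. Mesothelial genes were detected in 9 of 22 cases, and in 21 under the looser flag. Both bright ones, C3 and Slpi, were saturated, C3 on 1 of its 2 probes with the other at -2.05, and macrophages also make C3. Msln was dim at -1.86, Krt18 moderate at -0.70, and Wt1, Upk3b, Lrrn4 and Muc16 were not well above background. Fibroblast and matrix genes were detected in 20 of 30 cases, near the share of all genes, but 12 passed the stricter threshold on signal and 9 were detected on every probe. Of the collagen genes, Col1a2 (1.93) was moderate on 1 of 2 probes detected, Col3a1 (0.41) on 1 of 3 and Col1a1 (0.09) on 2 of 3. Dcn (1.73) was moderate on 1 of 2, and Pdgfra, Lum and Dpt were not well above background. Endothelial genes were detected in 9 of 22 cases and bright in 0, with 19 detected under the looser flag and 5 on every probe. Eng was moderate at 2.15, and Cdh5, Kdr, Tek and Tie1 were not well above background. Of smooth muscle genes, Acta2 was bright at 4.25 on 2 of 5 detected probes, but Myh11, Cnn1 and Des were not well above background. Of adipocyte genes, Adipoq and Lep were not well above background.

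Genes of distant tissues were detected in 71 of 192 cases (37.0%) and bright in 5 (2.60%). The looser flag raised the detected count to 147, and the share over all genes to 82.2%. Hepatocyte genes had the highest detected share of these lists, with 28 of 39 detected (71.8%, against 61.5% of all genes) and 3 bright (7.69%, below the 15.4% of all genes). Alb, serum albumin, stood at 3.19 on 1 probe, haptoglobin, Hp, at 7.29 and transferrin, Trf, at 6.17. Ahsg (2.00), Ambp (1.41) and Fgb (0.41) were moderate and Apoa1 (-1.75) and Apoh (-2.55) dim. Other abundant liver transcripts, Ttr, Apob, Cps1 and Cyp2e1, were not well above background. Lyz1, counted as a gut gene, stood at 7.82 and is a near copy of Lyz2, while Vil1, Muc2, Fabp2 and Cdx2 were not well above background. Pancreas genes were detected in 2 of 13 cases, neuron and glia genes in 6 of 24, with Mbp bright at 3.36 on 1 of 3 probes, germ cell genes in 5 of 17 and skin, lung and kidney genes in 5 of 21.

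Genes with a known behaviour were used as checks. Of 29 genes used by most cells, 29 were detected and 24 bright. The Y-linked genes Eif2s3y (1.01), Ddx3y (0.94) and Kdm5d (-1.25) were detected, Uty was not, and Xist, the transcript of the inactive X, was not well above background on any of 4 probes. The label gives male animals. Cell division genes were detected in 34 of 34 cases and bright in 13, with Mcm6 at 5.33, Pcna at 4.47 and Mki67, the proliferation antigen, at 3.92 on 2 of 2 probes. Cdk1 was moderate at 0.23 and Kif11 dim at -2.24. Of 153 negative control spots, 2 carried the flag for signal well above background, the higher at -3.12.

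The saturated genes were made up of 44 genes with symbols of ribosomal proteins (of 99 on the array), 8 MHC class I genes (of 24) and 41 others. The count of 99 goes by the letters of the symbol and can take in other genes, such as the kinases named Rps6k. Among the others were the adhesion receptor Adgre5 (CD97), the acute phase gene Saa3, the paired inhibitory receptor Pirb, the calcium-binding S100a6 and S100a4, the matrix gene Ecm1 and the actin-binding Cotl1. In Lrrc58 and Ptprz1 the saturated level stood beside undetected probes of the same gene, with 2 of 4 and 1 of 4 probes detected. Ptprz1 is known as a phosphatase of the nervous system. Across all bright genes, 458 had at least 1 probe that was not well above background.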

How the data were processed

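Spot values were read from the scanner file of the TPA-only array. The authors' spot intensity values came, per the file headers, from Agilent Feature Extraction 10.5.1.1 after background subtraction and spatial detrending, and probe positions are on build mm8. The deposited flags for signal well above background (a multiplier of 13 in the header) and for saturation were used as given. A value table that the authors deposited is on the log2 scale. Its column for this array has a median of -3.60 and equalled the log2 processed signal minus 8.00 within 0.01 for 99.9% of detected probes, so scale and direction are known.

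From 43379 spots that are not controls, flagged outliers (157 spots) were left out and spots of a probe averaged, which gave 41173 probes, 20200 of them detected. The 75th percentile of the log2 signal was subtracted. Probes were named by accession (24375) or symbol (8726) through the RefSeq table of GRCm38.p6, and 8072 stayed unnamed, 1871 of them detected. A gene took its brightest detected probe, or the brightest when none was detected.

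The 51 gene lists, with 1270 different genes, 1246 matched to the array, and the choice of this array were made with earlier results of these data known. Genes named are the defining genes of each list, up to 6 of its members with the highest level, up to 6 not well above background, the 30 highest genes and 10 genes whose probes disagreed most; genes named beyond these were chosen after their values were seen, and not all that the rule selects are named. Some listed genes that entered the counts are not reported here by name. The array's precision is limited by there being 1. Alternatives were a looser and a stricter flag, normexp background correction, other rules over probes, other class limits, another scaling, outliers kept and file names. In a simulation the observed signals were taken as true, only the scanner's error was added, and 1 signal cutoff stood for the flag. There 94.9% of 19750 genes kept their class. The simulation leaves out the difference between probes and the choice of rule. With the looser flag 58.8% of genes kept their class, and with normexp detection 67.9%. It was 77.5% with the mean over probes, 79.4% with every probe detected and 87.5% with the stricter threshold. Python 3.11.15, numpy 2.4.6, pandas 2.3.3, scipy 1.17.1, matplotlib 3.10.9, R 4.3.3 and limma 3.58.1 were used.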

Additional observations from a re-analysis of the deposited data

How the results depend on the processing

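The share of genes detected, 61.5%, depended on the flag and on the rule over probes. It was 82.2% with the looser flag, 55.3% when a signal at least 2 times the lowest detected one was asked for, 77.5% with normexp and detection above the 95th percentile of negative controls, 49.7% when the majority of a gene's probes had to be detected, and 44.7% when every probe had to be. Of genes of peritoneal tissue cells, 91 were detected with the looser flag, 83 with normexp, 33 by the majority of probes and 31 by every probe, against 50. Of genes of distant tissues, 147 were detected with the looser flag and 129 with normexp, against 71. Detected counts of the macrophage identity, macrophage function, other blood cell and check lists stayed within 1.5 times under these settings. With 70 of 78, 608 of 734, 123 of 172 and 66 of 68 genes detected at the start, they could not rise past 1.5 times. Under the looser flag and normexp this is therefore no sign of steadiness, and only the stricter rules could have moved them. Every group's count stayed within 1.5 times with outlier spots kept and with the array file's names. Single lists moved more. Of 51 lists, the detected count moved past 1.5 times in 15 with the looser flag, 11 with normexp, 8 with every probe, 5 by the majority of probes, 5 with the stricter threshold, and 0 with outliers kept or file names. These include chemokines (29 with the looser flag, against 19), dendritic (20 against 13), platelet (12 against 6) and red cell genes (17 against 10). They also include the protein kinase C and phorbol ester list (14 with every probe, against 22), integrins (20 against 32) and fibroblast genes (12 with the stricter threshold, 10 by the majority and 9 by every probe, against 20).

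With bright set as the top 10% of detected genes, 1215 genes were bright in place of 3036, and among them were 159 macrophage function, 13 other blood cell, 3 peritoneal tissue, 3 distant tissue and 22 check genes. The bright class also depended on the rule over probes. With the mean over probes 1983 of the 3036 bright genes stayed bright, and 2208 did when every probe had to be detected. With the mean over probes, 4 peritoneal tissue genes were bright in place of 7. Scaling on another constant shifts every level alike and cannot change a class. The deposited values differ from the log2 signal by a constant, within 0.01, for 99.9% of detected probes and were classed with the same flags. Their unchanged classes are therefore no test either. The normexp signal, with the flags as before, kept 2982 of the 3036 bright genes. The median difference between the 2 probes of a gene was 1.48 with normexp.

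No paired analysis was possible because 1 array was used and no result comes from a test. Signal near background and saturation limit the dim and the brightest genes.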

Other observations

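Families of genes grouped by the letters of their symbols, chosen after the lists, gave further readings of the same array. Receptors of the nose and tongue lay almost wholly below the detection flag. Of 896 olfactory receptor genes 43 were detected (4.80%), of 128 vomeronasal receptors 5 (3.91%) and of 16 taste receptors 1, and 0 of these 3 families were bright. Defensins, antimicrobial peptides of epithelia, were detected in 6 of 36 cases (16.7%), Hox factors, which pattern the embryo, in 6 of 39 (15.4%), and keratins with their associated proteins in 21 of 86 (24.4%). Cytochromes P450, enzymes of drug and sterol metabolism, were detected in 31 of 78 cases and bright in 0.

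Gene families that all cells use were near complete. Genes with symbols in Nduf, named for the respiratory NADH dehydrogenase, were detected in 44 of 44 cases and bright in 29. These letters can also take in assembly factors, which are not subunits. Mitochondrial ribosomal proteins were detected in 78 of 78 cases with 35 bright, and genes with symbols of proteasome subunits in 39 of 40 with 24 bright. Zinc finger genes named Zfp, mostly transcription factors, showed another mix, with 257 of 345 detected (74.5%) and 18 bright (5.22%, against 15.4% of all genes). All 7 STAT factors, which carry cytokine signals, were detected and 5 were bright. Of 9 interferon regulatory factors 8 were detected and 7 bright. Killer lectin receptors, used by natural killer cells, were detected in 19 of 26 cases and bright in 0. Of the probes with no gene name, 23.2% were detected, against 49.1% of all probes.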
